A study of Mus musculus with 4 samples.

Results

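The immunoglobulin variable-region probe sets described here are the probes on an Affymetrix mouse array that read the antigen-binding part of antibody transcripts. They were chosen by name: every probe set whose gene field in the platform's probe-to-gene table holds at least 1 symbol that starts with Ighv, Igkv or Iglv. Of 45101 probe sets, 33 met this rule: 5 for the heavy chain, 24 for the kappa light chain and 4 for the lambda light chain. Together they name 20 genes, of which 2 are Ighv, 17 are Igkv and 1 is Iglv1. Of the 33, 20 name 1 gene only, 13 name several, and 8 of these also name a joining or constant-region gene, so their signal need not come from a variable region alone. The names of 15 end in a suffix (_x_at, _s_at or _a_at) that marks possible cross-hybridisation. Of the 31 with a listed target record (a database sequence entry), 11 share it with another of the 33, so the probe sets cannot be taken as independent measurements. Probe sequences were not compared, so a shared record need not mean that the probes read the same stretch.

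The RNA came from IgA-positive cells of the small intestine, isolated from untreated BALB/c mice (female, 9 weeks old, WT in the sample titles). CD11b, a myeloid integrin encoded by Itgam, set apart the fractions compared, CD11b-positive and CD11b-negative, each on 2 of the 4 arrays. Values "without CD11b" and "with it" are those of the CD11b-negative and then the CD11b-positive arrays. Replicate 1 of both fractions was made from 1 µg of RNA (One-Cycle labelling kit) and replicate 2 of both from 0.1 µg (3' IVT Express kit). No label ties an array to an animal, a pool or a sort, so p-values rest on the spread between arrays of a fraction, and that spread may be purely technical. In what follows, array values are given One-Cycle first, then 3' IVT Express. Where 1 array is left out, the kits are no longer balanced between the fractions, so a kit difference enters the fraction difference.

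Each antibody is built of heavy and light chains, and the variable region of each chain is encoded by a V gene segment that the B cell joined to shorter segments when it developed. The descendants of a B cell keep its choice of heavy-chain and light-chain segment, so the V transcripts of a plasma cell population reflect which clones it holds and how much antibody mRNA each makes. Mouse light chains are mostly kappa, with lambda in a minority of cells. IgA plasma cells of the gut lamina propria secrete large amounts of antibody and come in part from clones that expanded in response to gut bacteria. The arrays label RNA from its 3' end, where the constant region lies, while the V segment lies towards the 5' end.

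The array set as a whole was checked before the V probe sets were read. Itgam, the gene of CD11b, had quantile-normalized signals of 28.3 and 15.8 without CD11b and 189 and 109 with it, in the direction of the labels. The summed signal of 10 plasma cell markers, among them Sdc1, Jchain and Xbp1, was 42416 and 45963 without CD11b and 41732 and 43278 with it, and all 10 lay above the low-signal filter (a mean log2 level above the 40th percentile of all probe sets). Of the 10, 7 were lower with both kits and 0 higher (28.9% and 31.8% of all tested), with a median log2 difference of -0.050. Quantile normalization keeps the brightest of them, such as Jchain and Xbp1, nearly equal on every array, which bounds how far the sum can move. As deposited, with no shift removed, the 10 ran from -0.16 (Sdc1) to 0.67 (Ell2), where the median of all tested was 0.39. Sdc1, the plasma cell surface marker CD138, was itself lower with CD11b, at 5626 and 5941 against 3472 and 4155 (limma adjusted p = 0.907, and 1.88e-04 when the kit is a block). Pan-B-cell genes such as Ms4a1 and Cd22 were weak: 6 mature B cell markers summed to 436 and 215 without CD11b and 273 and 254 with it. In bulk RNA, fewer cells of a type and less RNA per cell cannot be told apart.

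V probe sets were among the brightest on every array. Of the 33, 12 had a mean signal of 5000 or more, 19 of 1000 or more and 5 below 100, and 8 ranked within the first 100 of 45037 probe sets on each of the 4 arrays. The brightest, 1427455_x_at, names Igkv6-23, Igkv4-53 and Igkv8-30 together with the kappa joining gene Igkj1 and the kappa constant gene Igkc, and read 12202 and 12633 without CD11b and 11468 and 11468 with it. The 1452463_x_at probe set, which names Igkv8-30 alone, read 11938 and 11938 without CD11b and 11938 and 11703 with it. Quantile normalization gives the top ranks of every array nearly the same values, which bounds the difference such a set can show. As deposited, their log2 differences, CD11b-positive minus CD11b-negative, were -0.10 and -0.047. In all, 32 of the 33 passed the low-signal filter and were tested; the exception was 1455530_at, a heavy-chain set for Ighv14-2 with signals of 0.497 to 6.22.

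**Figure D1:**
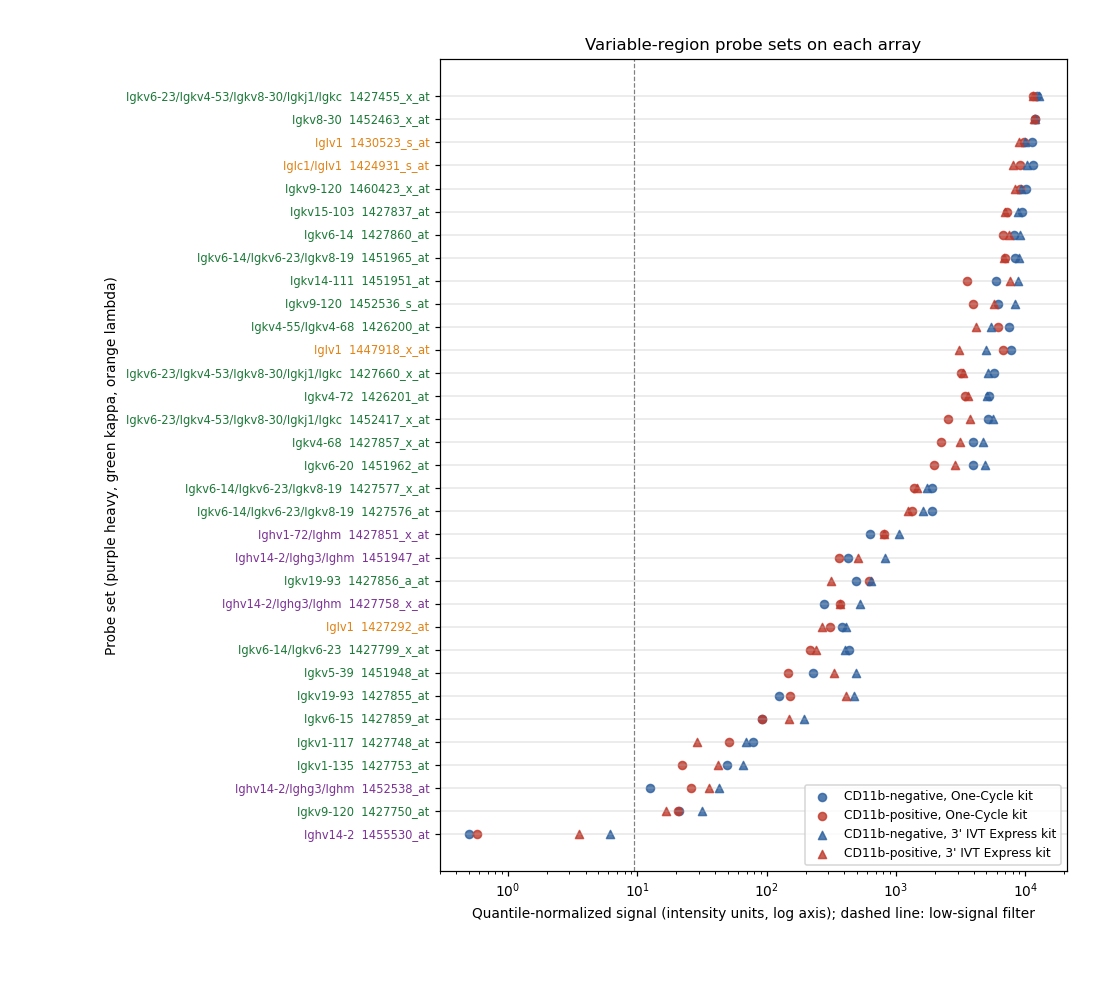
Quantile-normalized signal (x axis, log scale) of each of the 33 V probe sets (y axis, brightest at the top) on the 4 arrays. Blue marks CD11b-negative and red CD11b-positive arrays, circles the One-Cycle and triangles the 3' IVT Express kit, and the dashed line is the low-signal filter. Most kappa sets above 1000 show both red points left of both blue ones.

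The heavy-chain and light-chain probe sets lay in different parts of the signal range. The 28 light-chain sets had mean signals from 22.7 to 11943, with a median of 4285, and the 5 heavy-chain sets from 2.71 to 823, with a median of 384. Signals of different probe sets depend on how well each probe binds, and the heavy-chain sets cover only Ighv14-2 and Ighv1-72, so this is no measure of how much heavy chain the cells made. Within an array, however, the gap can be followed. The median log2 signal of the 4 tested heavy-chain sets minus that of the light-chain sets was -3.89 and -2.92 without CD11b and -2.94 and -2.88 with it. CD11b-negative replicate 1 stood apart, and the other 3 arrays lay close together.

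The comparison of the fractions asks whether IgA-positive cells with CD11b carry the same V transcripts as those without it. Light-chain V signals stood lower in the CD11b-positive fraction. Their median log2 difference, CD11b-positive minus CD11b-negative, was -0.44 over 28 sets (quartiles -0.63 and -0.32), against 0.016 over all 27022 tested probe sets. It was -0.37 within the One-Cycle and -0.43 within the 3' IVT Express pair. The 4 heavy-chain sets had a median of -0.033, with medians of 0.38 and -0.44 within the kits, so the kits gave opposite directions. With limma and Benjamini-Hochberg adjustment over all tested probe sets, 0 V probe sets were called in either direction, as for all probe sets (0% and 0% called, smallest adjusted p = 0.171). At an unadjusted p under 0.05 there were 13 lower and 0 higher V probe sets of 32, against 2.61% and 2.52% of all tested.

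With the kit added as a block, limma called 18 of the 32 lower and 0 higher (56.2% lower, against 2.4% of all tested probe sets called lower and 2.17% called higher). Of these 18, 15 were kappa, 2 lambda and 1 heavy. That model has 1 residual degree of freedom for each probe set, so it borrows most of its spread estimate from all the others. Without any model, 26 of 32 were lower with both kits and 0 higher (28.9% and 31.8% of all tested). In 20 both CD11b-positive arrays lay below both CD11b-negative arrays (15.9% of all tested), and in 0 above them (17.9% of all tested). In 5 the kits gave opposite directions (39.2% of all tested). No V probe set reached a 2-fold gap between the nearest arrays of the fractions (0.322% of all tested did so in the lower and 0.348% in the higher direction). The blocked count of 18 was 9 with no low-signal filter, where the share of all tested was not computed. It was 9 of 19 among sets that name 1 gene and 10 of 17 among those with no cross-hybridisation mark (2.4% of all tested, from the same fit).

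The lower V signals were set beside other probe sets of the same brightness. Among probe sets with a mean signal of 5000 or more, the 12 V sets had a median log2 difference of -0.33 and the 143 others 0.079. Between 1000 and 5000 the 7 V sets had -0.69 and the 869 others 0.027. Among all with 1000 or more, 18 of 19 V sets were lower with both kits, against 32.5% of the 1012 others. These medians describe the sets and carry no test.

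**Figure D2:**
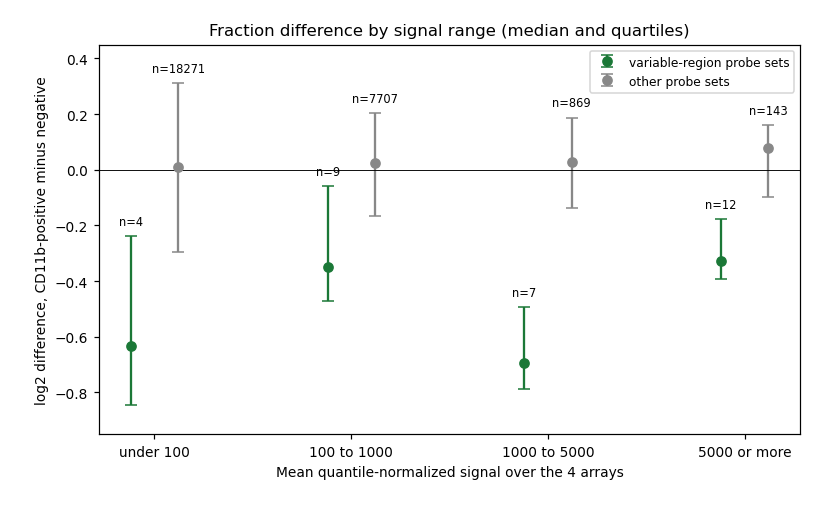
Log2 difference between the fractions (y axis, CD11b-positive minus CD11b-negative) by range of mean signal (x axis), for V probe sets in green and all other tested probe sets in grey; points are medians, bars the quartiles, n the number of probe sets. In each range the V median lies below 0 and the grey median close to it.

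How large the difference was depended on how the arrays were brought to a common scale. On the signals as deposited, the median of all tested probe sets was itself 0.39 log2 higher in the CD11b-positive fraction, and the light-chain V sets stood at -0.10, with -0.034 and -0.19 within the kits. Without rescaling, the blocked model called 0 V sets lower (0.833% of all tested) and 1 higher (22.2%), namely 1427851_x_at, which names Ighv1-72, Ighm (0.56, limma adjusted p = 0.0168). Lower with both kits were 18 of 32, and 4 were higher (9.33% and 62.6% of all tested), and 10 opposite (28.1%). The shift of all probe sets was 0.19 after centring on the array median. Taken relative to all tested probe sets, the light-chain median was -0.50 as deposited, -0.51 after median centring, -0.53 with trimmed means made equal and -0.63 under cyclic loess. The heavy-chain median was positive under the first 3 of these (0.11, 0.11 and 0.093). Thus the light-chain median was lower relative to the bulk of the array, while as deposited it differed little between the fractions. Single light-chain sets ran from -0.52 to 0.52 as deposited. The heavy-chain median as deposited, with no shift removed, was 0.50, with 1.05 and -0.075 within the kits. From here on, differences of single V sets as deposited or under cyclic loess are given relative to all tested probe sets. The 33 sets made up 2.79% and 2.65% of the summed deposited signal without CD11b and 1.81% and 1.86% with it.

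**Figure D3:**
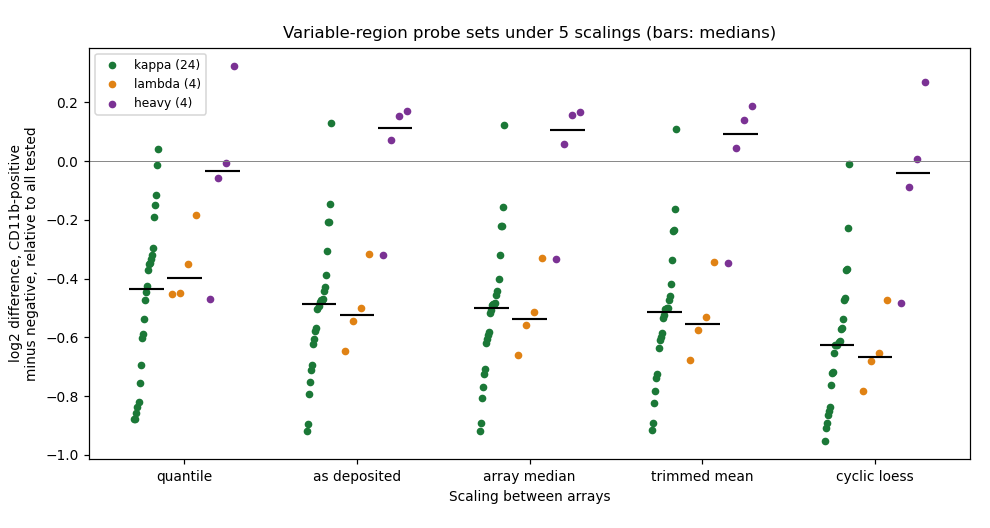
Log2 difference between the fractions (y axis, CD11b-positive minus CD11b-negative) of each tested V probe set under 5 ways to scale the arrays (x axis). Values of all scalings but quantile are given relative to the median of all tested probe sets; points are probe sets and black bars medians per chain. Kappa and lambda medians are below 0 in each column, the heavy median on either side of it.

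Among the kappa sets, Igkv6-20, a V gene read by 1451962_at, had the largest difference among those that passed with the block: its signals were 3922 and 4884 without CD11b and 1973 and 2869 with it. Both CD11b-positive values lay below both CD11b-negative ones. The log2 difference was -0.88 (SE 0.22, n = 2 each), or 1.84-fold lower, with -0.99 and -0.77 within the One-Cycle and 3' IVT Express pairs (limma adjusted p = 0.907, and 1.45e-05 with the block). The 1427799_x_at set for Igkv6-14 and Igkv6-23 read 433 and 405 against 219 and 242 (negative against positive). It was 1.81-fold lower (-0.98 and -0.74 within the kits, limma adjusted p = 0.00110 with the block). Of the 3 sets that name Igkv6-23, Igkv4-53, Igkv8-30, Igkj1 and Igkc together, the dimmer pair passed with the block and the brightest did not, and the size of this gap depended on the scaling. The 1452417_x_at set read 5156 and 5626 against 2502 and 3719.6 and 1427660_x_at 5738 and 5179.6 against 3169.8 and 3292, with log2 differences of -0.82 and -0.75 against -0.11 for 1427455_x_at. The limma adjusted p with the block was 5.94e-05, 3.34e-05 and 0.431. Relative to all tested probe sets, 1427455_x_at was at -0.49 as deposited and -0.62 under cyclic loess, closer to 1452417_x_at (-0.75 as deposited and -0.91 under cyclic loess) and 1427660_x_at (-0.70 as deposited and -0.85 under cyclic loess). Without CD11b-positive replicate 1 the difference of 1452417_x_at was -0.55.

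Other kappa sets showed smaller differences or were weak. Igkv4-68 (1427857_x_at) read 3915 and 4708 against 2237 and 3145 and was 1.62-fold lower, with a log2 difference of -0.69, or -0.46 without CD11b-positive replicate 1. Igkv4-72 (1426201_at), which lies near Igkv4-68 in the kappa locus with 4 genes between them, read 5224 and 5012 against 3413 and 3630.1 and was 1.45-fold lower. Both passed limma with the block (adjusted p = 1.01e-04 and 5.73e-04). Igkv15-103 (1427837_at) read 9481 and 8773 against 7174 and 6921, 1.29-fold lower (-0.37 log2, and -0.58 as deposited and -0.72 under cyclic loess, adjusted p = 0.00474 by limma with the block). Igkv4-55 with Igkv4-68 (1426200_at) read 7498 and 5431 against 6199 and 4139; there the One-Cycle positive array lay above the 3' IVT Express negative one, and the lower signal showed only within the kits (-0.27 and -0.39). Without 1 array its difference of -0.33 ranged from -0.64 (CD11b-positive replicate 1 left out) to -0.054 (CD11b-positive replicate 2 left out), and was -0.10 and -0.56 without CD11b-negative replicate 1 and 2. At the weak end, Igkv1-117 (1427748_at) read 78.4 and 68.8 against 51.1 and 29.0 and Igkv1-135 (1427753_at) 49.7 and 65.7 against 22.2 and 42.0. Their log2 differences were -0.88 and -0.84, close to that of Igkv6-20, but neither passed, also with the block (limma adjusted p = 0.0652 and 0.114). Single arrays moved both: Igkv1-117 was at -1.26 and -0.47 without CD11b-positive replicate 1 and 2, and Igkv1-135 at -0.42 and -1.20.

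The lambda light chain is represented by Iglv1 only, read by 4 probe sets. All 4 were lower with both kits. The set that also names the constant gene Iglc1 (1424931_s_at) read 11468 and 10307 without CD11b and 9055 and 8038 with it, 1.27-fold lower (limma adjusted p = 0.907, and 0.00603 with the block). Under other scalings the Iglc1 set was at -0.65 as deposited and -0.78 under cyclic loess, relative to all tested probe sets, against -0.35 here. The brightest, 1430523_s_at, read 11218 and 9992 against 9768 and 8883 and was at -0.54 as deposited and -0.68 under cyclic loess (quantile log2 difference -0.18, limma adjusted p = 0.162 with the block) and the dimmest, 1427292_at, 384 and 409 against 310.1 and 269.8 (-0.45, adjusted p = 0.0706). The 1447918_x_at set overlapped between the fractions, at 7746 and 4948 against 6702 and 3063, and was higher with the One-Cycle kit in both fractions. Its limma adjusted p was 0.00981 with the block, and its log2 differences were -0.21 and -0.69 within the kits. The value over all arrays, -0.45, was 0.12 without CD11b-positive replicate 2, where the kits are unbalanced between the fractions. The lambda median of -0.40 lay close to the kappa median of -0.44. Within arrays, the median log2 signal of lambda minus that of kappa sets was 1.05 and 0.51 without CD11b and 1.72 and 0.62 with it. With both kits it was higher in the positive array, while it was lower with the 3' IVT Express than with the One-Cycle kit in both fractions. This gap was read under quantile normalization only, which bounds the brightest sets. As deposited, with no shift removed, the lambda median difference between the fractions was 0.0050 and -0.24 within the kits. That of all light-chain sets was -0.034 and -0.19, so the kits did not share this direction there.

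The kits gave different directions for most heavy-chain sets. All 4 tested sets were lower within the 3' IVT Express pair, while 3 of them were higher within the One-Cycle pair. The set for Ighv1-72 and the IgM constant gene Ighm (1427851_x_at) read 626 and 1052 without CD11b and 809 and 805 with it. The positive arrays were nearly equal and lay between the negative ones, so the difference was 0.37 and -0.38 within the kits. Of the 3 tested sets that name Ighv14-2 with Ighg3 and Ighm, 1427758_x_at read 279 and 523 against 367 and 368, the same pattern, and 1452538_at 12.6 and 42.9 against 26.1 and 35.6. The third, 1451947_at, read 429.7 and 824 against 360.1 and 510.1 and was lower with both kits (-0.25 and -0.69, limma adjusted p = 0.0467 with the block), but its log2 difference of -0.47 was -0.0027 with the negative replicate 2 left out and -0.22 with the positive replicate 1 left out. In all 4 the CD11b-negative array of the 3' IVT Express kit was the highest of the 4 arrays. The negative arrays differed 1.68-fold to 2.94-fold, and in 3 of the 4 sets the kits shared no direction between the fractions. The median of the 4 was -0.49 without CD11b-negative replicate 1 and 0.38 without CD11b-negative replicate 2.

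**Figure D4:**
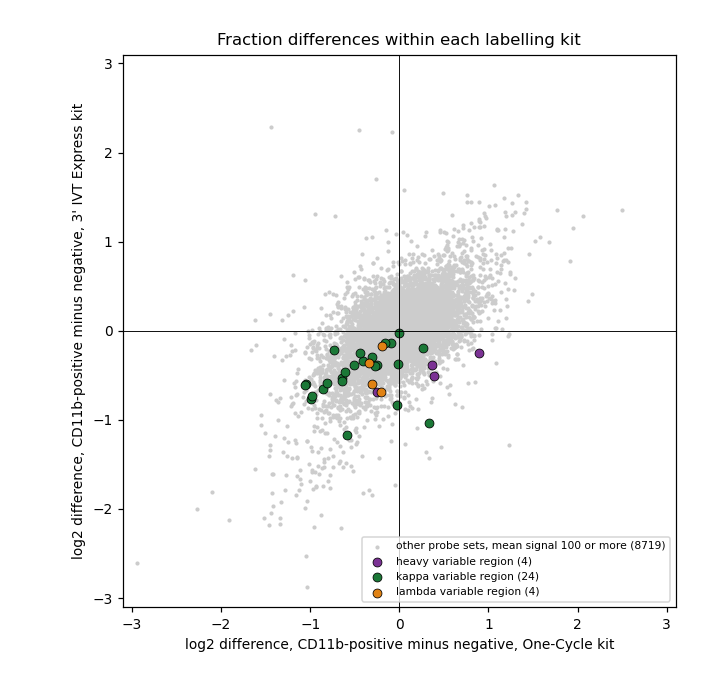
Log2 difference between the fractions (CD11b-positive minus CD11b-negative) within the One-Cycle pair (x axis) and within the 3' IVT Express pair (y axis). Coloured points are tested V probe sets by chain and grey points other probe sets with a mean signal of 100 or more. Kappa and lambda sets gather at the lower left, and 3 of 4 heavy sets lie at the lower right, opposite in the kits.

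For several V genes the arrays made with each kit lay further apart than the fractions. The One-Cycle and 3' IVT Express pairs differ in kit and RNA amount and may differ in animals, which cannot be told apart here. Igkv19-93 (1427855_at) read 125 and 470.2 without CD11b and 151 and 412 with it: the 3' IVT Express arrays were 3.71-fold higher in the negative and 2.70-fold higher in the positive fraction. Igkv5-39 (1451948_at) read 229 and 494 against 145 and 333, 2.15-fold and 2.27-fold higher with that kit, while its fraction difference was -0.64 and -0.56 within the kits. Igkv14-111 (1451951_at) read 5941 and 8830.1 against 3571 and 7625, and Iglv1 (1447918_x_at) went the other way, higher in the One-Cycle pair. In such sets the fraction difference depended on which array was left out, which unbalances the kits and lets the kit difference in. That of Igkv5-39 ranged over -1.17 to -0.011, and was nearest 0 with the positive replicate 1 or the negative replicate 2 left out (-0.011 and -0.052). That of Igkv14-111 was -0.47 (limma adjusted p = 0.00781 with the block), -0.18 with the negative replicate 2 left out and 0.067 with the positive replicate 1 left out. Across the 32 tested sets the log2 kit difference had an SD of 0.57 in the CD11b-negative and 0.57 in the CD11b-positive fraction. The fraction difference had an SD of 0.47 with the One-Cycle and 0.26 with the 3' IVT Express kit. For other probe sets with a mean signal of 100 or more these SDs were 0.52, 0.47, 0.39 and 0.38, so a wider kit than fraction spread was common to the arrays.

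The kit difference of a V probe set was similar in both fractions. Pearson's r between the kit differences of the CD11b-negative and CD11b-positive arrays was 0.67 across 32 V sets and 0.42 across all tested probe sets. For sets with a mean signal of 1000 or more it was 0.94 across 19 V sets and 0.87 across the 1012 others. The fraction differences of the kits correlated at 0.29 across the 32 and at 0.71 across the 19 brighter V sets, against 0.76 for the brighter others. These correlations are across probe sets, which are not independent replicates and share arrays, the scaling and in part the target record. They are given as descriptions. The sets of Igkv19-93 disagreed in sign. Both are listed with the same target record, as is 1427857_x_at for Igkv4-68, which was 1.62-fold lower. The 1427856_a_at set read 489.6 and 645 against 618 and 313, with 0.33 and -1.03 within the kits, while 1427855_at had 0.27 and -0.19. Without CD11b-positive replicate 2 both turned sign, to 0.13 and -0.66.

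**Figure D5:**
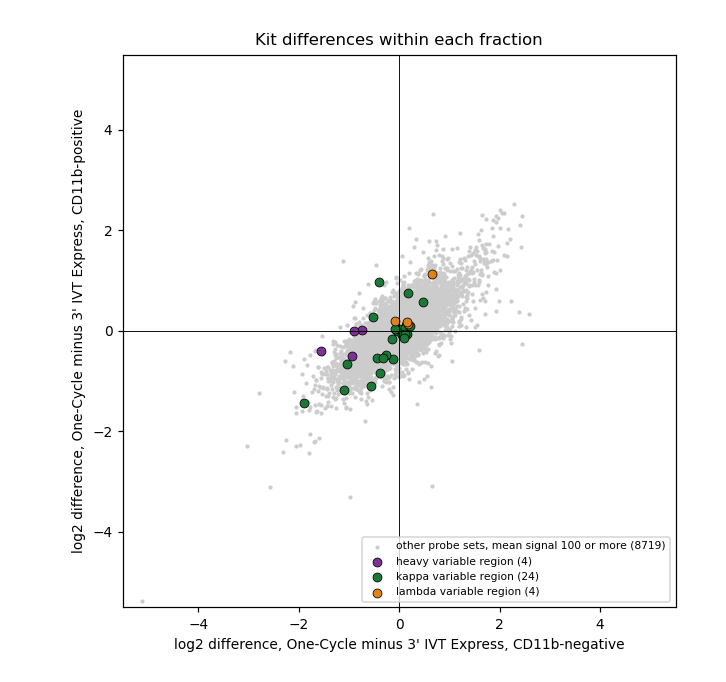
Log2 difference between the labelling kits (One-Cycle minus 3' IVT Express) in the CD11b-negative (x axis) and in the CD11b-positive fraction (y axis), for tested V probe sets by chain and, in grey, other probe sets with a mean signal of 100 or more. Most V points lie along the diagonal; the lowest is Igkv19-93 (1427855_at), and the pair of heavy sets near 0 on the y axis lies below 0 on the x axis.

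Whether V usage shifted between the fractions was read after setting each array to the median of the V sets themselves, which removes a shift common to all of them. On that scale 3 sets passed as lower and 2 as higher with limma and the block (0.799% of all tested called lower and 24.1% higher, since all others shift with the V sets' median), and 0 without it. Lower with both kits were 9 of 32 (6.68% of all tested). The centring places the V sets around 0 and the median of all tested probe sets at 0.43. The shares of all tested called or found lower are thus small by construction and no baseline for the V sets. Lower relative to the other V sets were Igkv6-20 (-0.47 log2, adjusted p = 0.00951), Igkv6-14 with Igkv6-23 (1427799_x_at, -0.45, adjusted p = 0.0487) and 1452417_x_at (-0.41, adjusted p = 0.0259). Their differences within the kits were -0.66 and -0.27, -0.65 and -0.24, and -0.72 and -0.10, each larger in the One-Cycle pair. Higher were Igkv8-30 (1452463_x_at, 0.40, adjusted p = 0.0213) and Ighv1-72 with Ighm (1427851_x_at, 0.40, adjusted p = 0.0444). Within the kits Igkv8-30 was at 0.33 and 0.47, and 1427851_x_at at 0.70 and 0.11. The higher place of Igkv8-30 depended on quantile normalization: relative to all tested probe sets it was at -0.44 as deposited and -0.57 under cyclic loess, where the median of the V sets was -0.48 and -0.62. Under the same 2 scalings Igkv6-20 was at -0.79 and -0.95, below that median. Other sets that name Igkv6-14 did not pass on this scale: Igkv6-14 alone (1427860_at) was at 0.11 and 1427577_x_at at 0.064. The sets that passed lower include 2 that name several genes and carry a cross-hybridisation mark, so Igkv6-20 is the single V gene among them.

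Probe sets that name the same gene differed widely in level and, under quantile normalization, in size of difference. Igkv9-120 was read by 3 probe sets, of which 1452536_s_at and 1427750_at are listed with the same target record. The brightest, 1460423_x_at, read 10118 and 9194 against 9033 and 8355. The 1452536_s_at set read 6123 and 8299 against 3922 and 5738, and 1427750_at 21.2 and 31.9 against 20.9 and 16.6. In that order, the 3 log2 differences were -0.15, -0.59 and -0.43. The middle one passed limma with the block (adjusted p = 1.50e-04). It was -0.33 with the positive replicate 1 left out and -0.35 with the negative replicate 2 left out. Under other scalings they lay closer: the brightest was at -0.43 as deposited and -0.57 under cyclic loess, 1452536_s_at at -0.57 as deposited and -0.72 under cyclic loess and 1427750_at at -0.62 as deposited and -0.47 under cyclic loess. Igkv6-14 (1427860_at) and its next neighbour in the kappa locus, Igkv6-15 (1427859_at), are listed with the same target record as well. They read 8233 and 9119 against 6676 and 7447, and 93.0 and 193 against 92.3 and 148, in that order. The first was lower in both positive arrays (-0.30) and the second overlapped (-0.19, or 0.14 and 0.32 with the positive replicate 1 or the negative replicate 2 left out). The sets for Igkv6-14, Igkv6-23 and Igkv8-19 were lower by all 3 probe sets: 1451965_at at 8355 and 8922 against 7009 and 6812, 1427577_x_at at 1884 and 1732 against 1387 and 1453 and 1427576_at at 1887 and 1619.6 against 1331 and 1239. With the block all 3 passed limma (adjusted p = 0.0159, 0.0461 and 0.00993).

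Other immunoglobulin probe sets, which name no Ighv, Igkv or Iglv gene, gave a smaller median shift in the same direction, with no matching for brightness. Of 24, 23 were tested, with a median log2 difference of -0.25 (range -1.05 to 0.22), and with the block limma called 7 lower and 0 higher (2.4% and 2.17% of all tested). As deposited, with no shift removed, they went both ways, from -0.49 (1426199_x_at) to 0.43 (1425247_a_at). The 3 sets of Igha, the IgA constant region, had -0.099, -0.26 and -0.64, in order of falling signal. The 4 sets named Igk, the kappa locus, ran from -0.73 to 0.056: the 1427757_at set read 3348 and 3472 against 2017 and 2102 (adjusted p = 5.81e-05 by limma with the block). The 1427858_at set carries the symbol Igk-V21, which the naming rule does not take in, and read 34.4 and 86.6 against 46.1 and 68.3. Ighg3, an IgG constant region, had the widest difference, at 1186 and 2145 against 536 and 1104 for 1426199_x_at. Jchain, the joining chain of polymeric IgA, stood at 0.099.

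Genes that assemble, mutate and transcribe immunoglobulin genes were read beside them. Of 32 listed, 27 matched a probe set and 23 passed the low-signal filter, with a median log2 difference of 0.091. Limma called 0, and with the block 1 higher and 2 lower (2.17% and 2.4% of all tested). The recombinase genes Rag1 and Rag2, which cut V segments in developing B cells, were below the filter, at signals of 0.203 to 0.883 and 0.652 to 4.01. Lig4, the ligase that closes V(D)J joints and other DNA breaks, read 65.1 and 52.7 against 111 and 124 (negative against positive) and was the gene called higher with the block (adjusted p = 0.0137 by limma). Its log2 difference was 1.38 on the deposited signals, with no shift removed. Cd79a, a signalling chain of the B cell receptor, read 2936 and 638 against 1659 and 468, and Vpreb3, named for its likeness to the surrogate light chain, 1037 and 857 against 685 and 680.0; these were the 2 called lower with the block (adjusted p = 0.00197 and 0.0206 by limma), and on the deposited signals, with no shift removed, their log2 differences were -0.081 and 0.12. Pou2af1, the co-activator of octamer promoters found in V genes, read 4863 and 4988 against 5092 and 4453, and Xbp1, which drives the secretory programme, 8830.1 and 9033 against 8435 and 9000.1. Neither passed.

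Markers of other cells moved between the fractions as well. Of all tested probe sets, 28.9% were lower with both kits and 31.8% higher. Of 10 epithelial markers, 9 were lower with both kits and 0 higher (median log2 difference -1.18). Of the 10, 8 passed limma as lower with the block (2.4% of all tested) and 0 without it (0% of all tested). The summed signal of the 10 was 4092 and 4348 without CD11b and 2329 and 1789 with it. T cell markers summed to 1969 and 679 without CD11b and 816 and 465 with it, with 3 of 6 tested lower with both kits and 1 higher. Ccl5 alone read 1273 and 495 without CD11b and 502 and 291 with it. Macrophage, monocyte and dendritic cell markers summed to 428 and 369 without CD11b and 683 and 485 with it. Of the 8 tested, 5 were higher with both kits and 2, Csf1r and Adgre1, lower. Granulocyte and mast cell markers summed to 292 and 178 without CD11b and 243 and 112 with it (2 of 4 lower with both and 1 higher). The macrophage marker C1qa (at 49.6 on the positive One-Cycle array and under 3 on the others), the granulocyte markers Epx, S100a8 and S100a9 and the T cell marker Cd8b1 lay below the low-signal filter. For the beta-actin control, the ratio of 3' to 5' signal, a measure of RNA length after labelling, was 1.90 and 1.84 without CD11b and 1.43 and 1.61 with it. For the GAPDH control it was 0.685 and 0.704 without CD11b and 0.682 and 0.710 with it, so only the first of these controls moved with the fraction. The part of these cells or of RNA length in the V differences was not tested.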

How the data were processed

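The 4 arrays were given as 1 table of intensity values, a linear signal per probe set deposited by the authors; the submitters' processing notes name MAS5 and Affymetrix Expression Console, with no version or scaling target stated there. Gene names came from the platform annotation; all 20 V gene identifiers were found unchanged in RefSeq genes of GRCm38.p6, which served for names and gene order alone.

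The deposited arrays were not on a common scale: their 2% trimmed means came to 48.6 and 70.0 without CD11b and 73.8 and 90.3 with it. Leaving out 64 control probe sets, signals were quantile-normalized, 3 was added and log2 taken, so fold changes understate differences of weak sets. The 27022 probe sets whose mean log2 level passed the 40th percentile were tested one by one with limma 3.58.1 in R 4.3.3 (eBayes with trend; called at a 2-sided p under 0.05 after Benjamini-Hochberg adjustment). The fit without a block is the main one. The kit block rests on the labelling protocols, which name a kit shared by 1 array of each fraction; deviations of same-kit arrays correlated across probe sets (r = 0.42). The fit was run on simulated arrays with changes larger than the V differences seen here, so that run says nothing about calls of this size. With 2 arrays a fraction, the smallest exact permutation p is 0.333, and no such test was run. The few arrays limit the precision of every value.

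The V probe sets and the gene lists were chosen with earlier results of these data known. Named sets are the 5 brightest per chain, up to 10 per direction with the largest shift shared by both kits, up to 4 per direction opposite in the kits, all lambda sets, and single-gene sets that disagree in sign; other sets named here were chosen after their values were seen.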

Additional observations from a re-analysis of the deposited data

How the results depend on the processing

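Scaling, the block and single arrays moved the results most; the cause was not tested unless the setting itself shows it. The main limma fit called 0 V sets under each setting without the block (unadjusted p under 0.05 in the main fit: 13), and the replicate block by kit called 18 lower. That blocked count was 0 lower and 1 higher as deposited, 9 with no low-signal filter, and, with fewer sets, 9 of 19 that name 1 gene and 10 of 17 without a cross-hybridisation mark; relative to the V median it was 3 lower and 2 higher. Sets lower with both kits numbered 16 of 19, 15 of 17 and 9 of 32 in those last 3 settings. The median of all V sets (-0.40) was -0.49 after median centring, -0.50 with trimmed means made equal and -0.62 under cyclic loess, each relative to all probe sets, and -0.51 to -0.31 on leaving out 1 array. The light-chain median was -0.50, -0.51, -0.53 and -0.63 under the 4 scalings, -0.025 relative to the V median, and -0.53 to -0.40 without 1 array. The heavy-chain median ran from -0.49 when CD11b-negative replicate 1 was left out to 0.38 when its replicate 2 was, and was not computed without sets that name several genes, since none was left. The SD across V sets was 0.33 to 0.48 on leaving out 1 array. Centring each array on the median signal of the V sets, in place of their median difference, moved the median of all probe sets by 0.81.

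Some single sets changed sign. With 1 array left out the kits are unbalanced between the fractions, so the kit difference of a set enters these values. On leaving out 1 array, 1427851_x_at ran from -0.38 to 0.37, 1427758_x_at from -0.51 to 0.40, 1452538_at from -0.47 to 1.09, 1427855_at from -0.92 to 0.99, 1427856_a_at from -0.84 to 0.13, 1447918_x_at from -1.04 to 0.12, 1451951_at (Igkv14-111) from -1.07 to 0.067 and 1427859_at (Igkv6-15) from -0.72 to 0.32. The heavy set 1427851_x_at was at 0.17, 0.16, 0.14 and 0.0070 under the 4 scalings and 0.40 relative to the V median. The heavy set 1427758_x_at was at 0.071, 0.059 and 0.045 under the first 3 and 0.35 relative to the V median. Of Igkv19-93, 1427855_at was at -0.011 under cyclic loess and 1427856_a_at at 0.061 relative to the V median. The array left out where the sign turned was CD11b-negative replicate 2 for 1427851_x_at and 1427758_x_at, CD11b-negative replicate 1 for 1452538_at, that array and also CD11b-positive replicate 2 for 1427855_at, CD11b-positive replicate 2 for 1427856_a_at and 1447918_x_at (Iglv1), CD11b-positive replicate 1 for 1451951_at, and that array and CD11b-negative replicate 2 for 1427859_at. Relative to the V median, signs also turned for 1427455_x_at (0.30), Igkv8-30 (0.40), Iglv1 (0.23 and 0.061) and Igkv9-120 (1460423_x_at, 0.26). Pseudocounts of 1 and 12, no trend and the stricter filter changed no direction among the named sets they kept. The fit without the block had no call to lose. With the block, 16 of 32 V sets were called lower with a pseudocount of 1, 18 with 12 and 16 of 29 with the stricter filter. The share of all tested probe sets called was not computed for these settings, nor with no low-signal filter.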
